A study of Mus musculus with 4 samples.

Results

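Vessel growth into a tumour is set by secreted proteins that act for or against it, and 10 genes of this kind were examined in CT26 cells, a mouse colon carcinoma line. They are the antiangiogenic or matrix genes Serpinf1, Thbs1, Thbs2, Slit3 and Fbln5, the VEGF family ligands Vegfa, Vegfb, Vegfc and Pgf, and the angiopoietin-like gene Angptl4. All 10 were found by symbol, 1 row each, among 55335 genes of the deposited table, and 8 of them were among the 11955 genes with at least 1 FPKM in at least 2 libraries. FPKM counts fragments per kilobase of a gene's transcript and corrects for how many fragments each library yielded. The members were chosen by their known function and by values of these data: at least Serpinf1, Thbs1, Slit3 and Fbln5 were selected on their difference between the title stems. That difference is therefore given as values, with no test.

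RNA-seq gave a level for each gene in each of 4 libraries. CT26_102_R and CT26_CTL_R are labelled FOSL2-KO with chemoradiotherapy. CT26_102 and CT26_CTL are labelled FOSL2-WT with PBS. As labelled, genotype and treatment change together between the groups and cannot be told apart. The titles give a second division, the stem CT26_102 or CT26_CTL, which the labels do not explain. The series' design text speaks of knockdown cells, and the growth notes call the cells mesenchymal where another label calls them adenocarcinoma cells. Dose, time after treatment and knockout method are not given. No label states that the libraries are separate cultures. In the group fit with the stem as a term, a gene's own spread is how unlike its group difference is in the stems. That spread is moderated over all genes. A p-value here therefore covers these samples alone and does not measure a spread among replicate cultures, and part of the spread may be technical.

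Fosl2, whose product joins Jun proteins in the AP-1 dimer, had 16.0 FPKM in CT26_102_R and 19.2 in CT26_CTL_R, against 9.35 in CT26_102 and 12.7 in CT26_CTL. The transcript was thus higher, not lower, in the libraries labelled FOSL2-KO (0.64 ± 0.13 on the log2(FPKM + 1) scale, limma adjusted p = 0.0444). With the knockout method not given and treatment changing too, this level does not settle the genotype. The libraries are therefore called by their labels throughout. Between the stems, Fosl2 in CT26_102_R and CT26_102 was at 0.831 and 0.737 times its level in CT26_CTL_R and CT26_CTL. Whether the altered cells are marked by the suffix, as labelled, or by the stem is not settled by the labels. If by the stem, the suffix comparison would hold treatment without genotype, and the stem comparison genotype. The smallest step between low values corresponded to between 43.4 M and 53.0 M steps per library, so 1 step in a transcript of 2 kilobases was worth between 0.00944 and 0.0115 FPKM. Whether a step is a read or one end of a read pair could not be settled. Of the colon epithelium markers, 3 of 10 were tested and 0 passed in the labelled group fit below. In that fit 7.57% of all tested genes passed as higher and 5.32% as lower. Krt18 (between 34.6 and 76.5 FPKM) and Krt20 (between 24.5 and 36.8) were well expressed, whereas Epcam, Cdx1 and Cdx2 were listed at 0 in every library. Endothelial markers were near 0, with a sum over 10 genes of 1.41 and 0.419 FPKM in CT26_102_R and CT26_CTL_R, against 1.36 and 0.293 in CT26_102 and CT26_CTL. Cdh5 and Cldn5, which define endothelium, were listed at 0 in every library. Of 9 leukocyte markers 3 were tested and 1 rose in the libraries labelled FOSL2-KO, the lysosomal gene Cd68 (adjusted p = 0.0252). Lyz2 had 53.1 and 4.36 FPKM in CT26_102_R and CT26_CTL_R, against 15.02 and 13.05 in CT26_102 and CT26_CTL, and Csf1r had 1.998 and 0.159 FPKM, against 1.10 and 0.965, so both pointed in opposite directions in the stems and neither passed. The sum of the leukocyte markers was 120 and 91.4 FPKM, against 25.0 and 42.9, and Cd68 and Lyz2 carried most of it. Cd68 had 63.85 and 86.4 FPKM, against 8.49 and 28.3. Cd3e was listed at 0, and Ptprc, Adgre1, Itgam and Nkg7 did not exceed 0.0880, 0.132, 0.278 and 0.610 FPKM. The part of such cells in the members' differences was not tested.

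Vegfa encodes the main ligand that drives endothelial cells to divide and sprout, through the receptor VEGFR2. Vegfb and Pgf bind VEGFR1, and Vegfc acts mainly on lymphatic vessels through VEGFR3. Hypoxia-inducible factor (HIF) raises Vegfa and Angptl4 when oxygen is low. Thrombospondins 1 and 2, encoded by Thbs1 and Thbs2, inhibit endothelial cells through the receptors CD36 and CD47. Serpinf1 encodes PEDF, a serpin without protease inhibitor activity that restrains vessel growth. Slit3 encodes a ligand of Robo receptors, for which actions for as well as against vessel growth are known. Slit3 is counted with the antiangiogenic members below, as a name for the group only. Fbln5 encodes fibulin 5, a matrix protein of elastic fibres that antagonises VEGF signalling in endothelial cells.

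Promoters of some members are shown because the antiangiogenic members were high together in the CT26_102 stem while Vegfa and Vegfb were not. The set of RefSeq promoters (GRCm38.p6) used here held 8 members, all but Thbs1 and Angptl4. In each, the 250 bases before the RefSeq start were searched on both strands for the HIF response core ACGTG, the AP-1 motif TGANTCA, the GC box GGGCGG and the TATA box TATAAA. Each printed run is 150 bases that end before both the RefSeq and the GENCODE start, written 5′ to 3′ on the gene's strand, with capitals for a match to any of these motifs. The runs lie at chr11:75422702-75422851 (Serpinf1), chr17:14694263-14694412 (Thbs2), chr12:101819120-101819269 (Fbln5), chr17:46032378-46032527 (Vegfa) and chr19:6987652-6987801 (Vegfb), all on the minus strand.
Serpinf1: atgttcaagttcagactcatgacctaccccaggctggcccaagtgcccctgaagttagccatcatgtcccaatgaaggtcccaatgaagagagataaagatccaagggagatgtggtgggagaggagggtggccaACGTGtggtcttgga
Thbs2: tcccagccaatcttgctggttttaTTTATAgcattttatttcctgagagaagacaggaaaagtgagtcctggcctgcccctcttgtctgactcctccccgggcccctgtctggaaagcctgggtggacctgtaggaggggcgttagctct
Fbln5: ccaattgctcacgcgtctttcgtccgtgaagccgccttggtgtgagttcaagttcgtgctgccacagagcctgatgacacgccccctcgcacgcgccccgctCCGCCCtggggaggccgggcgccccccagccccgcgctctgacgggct
Vegfa: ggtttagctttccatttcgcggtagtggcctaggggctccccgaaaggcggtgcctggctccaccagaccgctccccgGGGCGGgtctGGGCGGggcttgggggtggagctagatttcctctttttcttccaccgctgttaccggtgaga
Vegfb: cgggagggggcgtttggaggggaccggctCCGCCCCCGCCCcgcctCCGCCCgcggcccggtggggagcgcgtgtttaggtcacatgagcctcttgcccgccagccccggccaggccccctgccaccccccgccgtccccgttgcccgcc

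The promoters of the antiangiogenic members differed in their letters. Serpinf1 held 1 HIF response core, with its first base 93 bases before the RefSeq start (-93), and 51.6% of its 250 bases were G or C. Thbs2 held 1 TATA box match, at -126, with 46.8% G or C. Slit3 held 6 GC boxes at 78.8% G or C, and Fbln5 held 2 at 65.2% in the promoter nearest its GENCODE start. Slit3 is not printed, since most of its window lies inside the GENCODE gene. Vegfa held 2 GC boxes at its first start (59.2% G or C), and 1 HIF core at -211 of a second RefSeq start inside the gene. Bases beyond the 250 were not searched for any member, so a motif not listed here may lie outside the window. Vegfb held 4 GC boxes (76.4% G or C), of which 3 are in the printed run. No AP-1 motif was found in these windows for any member searched, and Thbs1 and Angptl4 were not searched. Of 32851 RefSeq promoters searched the same way, 16.6% held the HIF core, 6.75% the AP-1 motif, 32.7% the GC box and 12.4% the TATA box. These matches are a description of the letters and show no binding.

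Between the title stems, the antiangiogenic genes were all on one side, while the VEGF family was divided. All 5 antiangiogenic members were higher in the CT26_102 stem, with and without suffix R, by between 2.80-fold and 96.2-fold. Vegfa, Vegfb and Angptl4 were lower in the CT26_102 stem in both pairs, at between 0.444 and 0.942 times the CT26_CTL stem. Pgf was higher there in both pairs at low levels, given below. A difference over 1 on the log2(FPKM + 1) scale in both pairs was held by 5 of the 8 members above the level filter, and by 328 of 11955 genes (2.74%). Nothing is read from this count, since the contrast chose members.

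**Figure D1:**
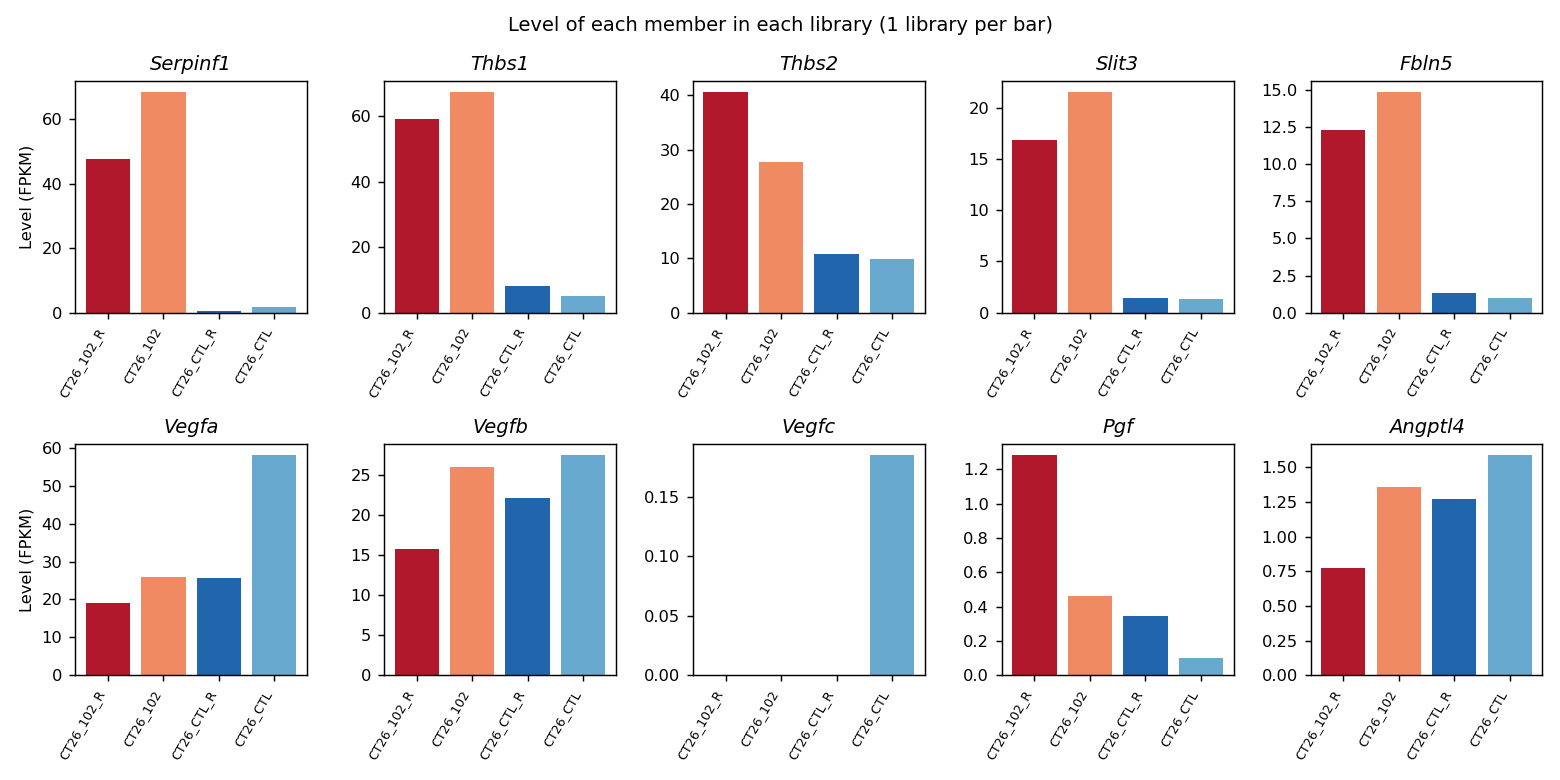
Level in FPKM (vertical axes, each from 0) of the 10 members in each of the 4 libraries, 1 bar per library, with stem CT26_102 in red shades and stem CT26_CTL in blue shades. The 5 antiangiogenic members in the upper row are high in both CT26_102 libraries. Vegfa is highest in CT26_CTL, at 58.2 FPKM, and Vegfc is above 0 in that library alone.

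Serpinf1 (ENSMUSG00000000753, GRCm38 chromosome 11, 75409769 to 75422701, minus strand) had 47.8 FPKM in CT26_102_R, against 0.496 in CT26_CTL_R. Without the suffix it had 68.4 FPKM in CT26_102, against 1.88 in CT26_CTL. It was thus among the more abundant transcripts of 1 stem and near the bottom of the other. Its level lay at percentile 90.9 and 94.4 of the tested genes in CT26_102_R and CT26_102, against 2.58 and 17.4 in CT26_CTL_R and CT26_CTL. The ratio was 96.2 with the suffix and 36.3 without it, and the difference on the log2(FPKM + 1) scale was 5.03 and 4.59. The ratio with the suffix rests on a low denominator.

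The thrombospondins were higher in the same stem to unequal degrees. Thbs1 (ENSMUSG00000040152, chromosome 2, 118111876 to 118127133, plus strand) had 59.0 FPKM in CT26_102_R and 67.3 in CT26_102, against 8.04 in CT26_CTL_R and 5.12 in CT26_CTL. Those values are 7.34-fold and 13.1-fold apart with and without the suffix. Thbs2 (ENSMUSG00000023885, chromosome 17, 14665500 to 14694235, minus strand) had 40.6 and 27.7 FPKM in CT26_102_R and CT26_102, against 10.8 and 9.90 in CT26_CTL_R and CT26_CTL, ratios of 3.75 and 2.80. Thbs1 stood above Thbs2 in the CT26_102 stem, at 1.45 and 2.43 times its level in CT26_102_R and CT26_102, and below it in the CT26_CTL stem, at 0.743 and 0.517 times in CT26_CTL_R and CT26_CTL. The lincRNA Gm29233 shares 208 exonic bases with Thbs1 on the opposite strand. It had 0 and 0.682 FPKM in CT26_102_R and CT26_102, against 0 and 0.0632 in CT26_CTL_R and CT26_CTL, and without known strandedness reads there cannot be assigned.

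Slit3 and Fbln5 had nearly the same profile. Slit3 (ENSMUSG00000056427, chromosome 11, 35121224 to 35708507, plus strand) had 16.8 and 21.5 FPKM in CT26_102_R and CT26_102, against 1.38 and 1.35 in CT26_CTL_R and CT26_CTL, ratios of 12.2 and 16.0. Fbln5 (ENSMUSG00000021186, chromosome 12, 101746565 to 101819055, minus strand) had 12.3 and 14.9 FPKM, against 1.31 and 0.974, ratios of 9.34 and 15.2. The distance between their profiles, taken over the 4 libraries on the log2(FPKM + 1) scale after centring each gene on its mean, was 0.358. This was the shortest distance between any 2 of these 5 genes, and that between Thbs1 and Slit3 was 0.398. Thbs1, Slit3 and Fbln5 were selected on the stem difference, which enters this distance, so nothing is read from their likeness.

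**Figure D2:**
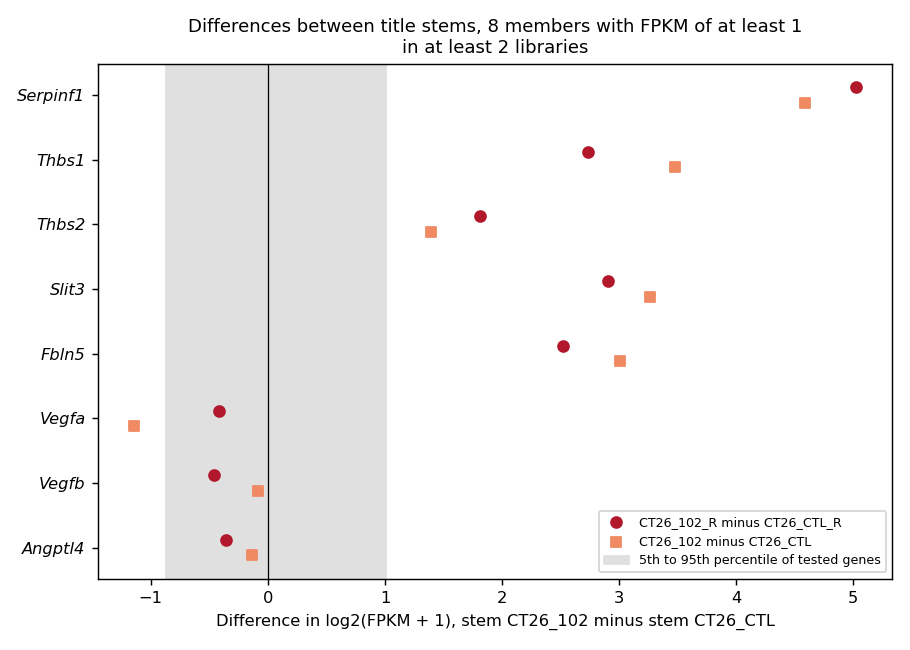
Difference in log2(FPKM + 1) between stem CT26_102 and stem CT26_CTL (horizontal axis) for the 8 members above the level filter, with circles for the pair with suffix R and squares for the pair without it. The shaded band runs from the lowest 5th percentile (-0.87) to the highest 95th percentile (1.01) of the tested genes over both pairs. The 5 antiangiogenic members lie right of the band, from 1.40 to 5.03, and the other members lie left of 0.

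Vegfa (ENSMUSG00000023951, chromosome 17, 46016993 to 46032369, minus strand) ran the other way. It had 19.0 and 25.8 FPKM in CT26_102_R and CT26_102, against 25.6 and 58.2 in CT26_CTL_R and CT26_CTL, which is 0.741 and 0.444 times. Vegfb (ENSMUSG00000024962, chromosome 19, 6982473 to 6987651, minus strand) had 15.8 and 25.9 FPKM in the CT26_102 stem, against 22.1 and 27.5 in the CT26_CTL stem, which is 0.715 and 0.942 times. Both ligands were thus well expressed in every library.

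Since FPKM is per length, levels can be compared between these genes. In CT26_102_R, Thbs1 was first, followed by Serpinf1, Thbs2, Vegfa, Slit3, Vegfb and Fbln5. In CT26_102 the order was Serpinf1, Thbs1, Thbs2, Vegfb, Vegfa, Slit3 and Fbln5. In CT26_CTL_R and CT26_CTL alike it was Vegfa, Vegfb, Thbs2 and Thbs1, with the other members at or under 1.88 FPKM. With 1 library per title, neighbours that swap between a library and its partner of the same stem, such as Thbs1 and Serpinf1 or Vegfa and Vegfb, are not ordered by these data. The 5 antiangiogenic genes summed to 176 and 200 FPKM in CT26_102_R and CT26_102, against 22.0 and 19.2 in CT26_CTL_R and CT26_CTL. The 4 VEGF family ligands summed to 36.1 and 52.2 FPKM, against 48.1 and 86.0. The ratio of these sums was 4.89 and 3.82 in the CT26_102 stem, against 0.459 and 0.224 in the CT26_CTL stem. The ratio of Thbs1 to Vegfa alone was 3.11 and 2.60, against 0.314 and 0.0880. Since at least Serpinf1, Thbs1, Slit3 and Fbln5 were selected on the stem difference, nothing is read from the stem differences of these sums and ratios.

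Among markers of fibroblasts and pericytes, which also express several of these genes, 5 of 12 reached 1 FPKM in some library. Their sum was 108 and 233 FPKM in CT26_102_R and CT26_102, against 81.6 and 114 in CT26_CTL_R and CT26_CTL. Collagen genes carried most of it. Lum and Postn were listed at 0 in every library, and Dcn and Thy1 did not exceed 0.142 and 0.0277 FPKM. In the labelled group fit the same 5 genes had lower values with suffix R in both stems, and 1 fell, Col1a2 (adjusted p = 0.0436). Of all tested genes, 38.2% were lower in both stems and 5.32% fell. The median of the 5 was -0.64, or -0.73 without Pdgfra, which reached 1 FPKM only in the libraries labelled FOSL2-WT. The part of such cells in the members' differences was not tested.

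By the same distance, the 5 tested genes nearest to Serpinf1 over the 4 libraries were the collagen gene Col3a1 (0.722), a gene with no symbol in the table (ENSMUSG00000117748, 0.751), Gm773 (0.890), AC125167.1 (1.01) and Dppa4 (1.11). Col3a1 had 19.8 and 53.0 FPKM in CT26_102_R and CT26_102, against 0.144 and 0.568 in CT26_CTL_R and CT26_CTL. Nearest to Vegfa were the small RNA genes Gm24494 (0.103) and Snord43 (0.204), both poorly measured by mRNA libraries, with Esm1 (0.170), Siah2 (0.170) and Aldh18a1 (0.203). Esm1, which encodes endocan, a proteoglycan of endothelial cells and tumours, had 49.2 and 64.4 FPKM in CT26_102_R and CT26_CTL_R, against 58.4 and 130 in CT26_102 and CT26_CTL. Siah2, a ubiquitin ligase that acts on the oxygen sensors of HIF, had 6.29 and 8.30 FPKM, against 7.36 and 19.7. These likenesses rest on 4 libraries and are a description.

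The second comparison asked how the members differed between the labelled groups, libraries with suffix R against their partners of the same stem. Serpinf1, Vegfa, Vegfb and Angptl4 were lower in both libraries labelled FOSL2-KO with chemoradiotherapy, and Thbs2 was higher in both. Thbs1, Slit3 and Fbln5 were lower in the CT26_102 stem and higher in the CT26_CTL stem. Lower in both stems thus held for 4 of 8 members, where 38.2% of all tested genes were so, and higher in both stems for 1 of 8, where 39.1% of all tested genes were so. In the limma fit with the stem as a term, 1 member of 8 passed an adjusted p of 0.05, lower in the libraries labelled FOSL2-KO. Of 11955 genes, 5.32% passed as lower and 7.57% as higher, so the members' count is near the background.

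Serpinf1 was the member that passed. Its level was 47.8 FPKM in CT26_102_R, against 68.4 in CT26_102, and 0.496 in CT26_CTL_R, against 1.88 in CT26_CTL. The level was thus 0.699 and 0.264 times that of the partner. The log2(FPKM + 1) difference was -0.73 ± 0.16 (SE, n = 2 libraries per group, limma adjusted p = 0.0498). The call is at the threshold and was lost under 6 of 8 other settings, where adjusted p ranged from 0.0322 to 0.926, and with no stem term it was 0.926. It is therefore no stable call, although both pairs had the same direction.

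Vegfa fell short of the threshold with a larger difference. It had 19.0 FPKM in CT26_102_R, against 25.8 in CT26_102, and 25.6 in CT26_CTL_R, against 58.2 in CT26_CTL, so it was at 0.734 and 0.440 times. The library CT26_CTL stood above the other 3, which lay between 19.0 and 25.8 FPKM. The log2(FPKM + 1) difference was -0.79 ± 0.20 (adjusted p = 0.0631), and upper-quartile rescaling gave -0.85 (adjusted p = 0.0390). Vegfb was at 0.609 and 0.803 times its partners, a difference of -0.49 ± 0.15 (adjusted p = 0.0845). Neither ligand passed as reported, and neither direction turned under any setting tried.

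Angptl4 (ENSMUSG00000002289, chromosome 17, 33773750 to 33781830, minus strand), whose product inhibits lipoprotein lipase and affects vessel permeability, was low in every library. It had 0.777 FPKM in CT26_102_R, against 1.36 in CT26_102, and 1.27 in CT26_CTL_R, against 1.59 in CT26_CTL. The difference was -0.30 ± 0.16 (adjusted p = 0.235). Values near 1 FPKM are compressed on the log2(FPKM + 1) scale, which understates the change of low genes.

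The thrombospondins, Slit3 and Fbln5 showed no labelled group difference past the threshold. Thbs2 had 40.6 FPKM in CT26_102_R, against 27.7 in CT26_102, and 10.8 in CT26_CTL_R, against 9.90 in CT26_CTL, a difference of 0.33 ± 0.16 (adjusted p = 0.197). Thbs1 was at 0.877 times its partner in the CT26_102 stem and 1.57 times in the CT26_CTL stem (0.19 ± 0.21, adjusted p = 0.548). Slit3 was at 0.782 and 1.03 times (-0.16 ± 0.15, adjusted p = 0.496), and Fbln5 at 0.826 and 1.35 times (-0.01 ± 0.17, adjusted p = 0.962).

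Pgf and Vegfc were not tested. Pgf (ENSMUSG00000004791, chromosome 12, 85166635 to 85177790, minus strand) had 1.28 FPKM in CT26_102_R, against 0.463 in CT26_102, and 0.347 in CT26_CTL_R, against 0.0992 in CT26_CTL. It was higher with suffix R in both stems, by 2.77-fold and 3.50-fold, and higher in the CT26_102 stem in both pairs, by 3.70-fold and 4.67-fold. Vegfc (ENSMUSG00000031520, chromosome 8, 54077606 to 54187096, plus strand) had 0.186 FPKM in CT26_CTL and was listed at 0 in the other 3 libraries.

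**Figure D3:**
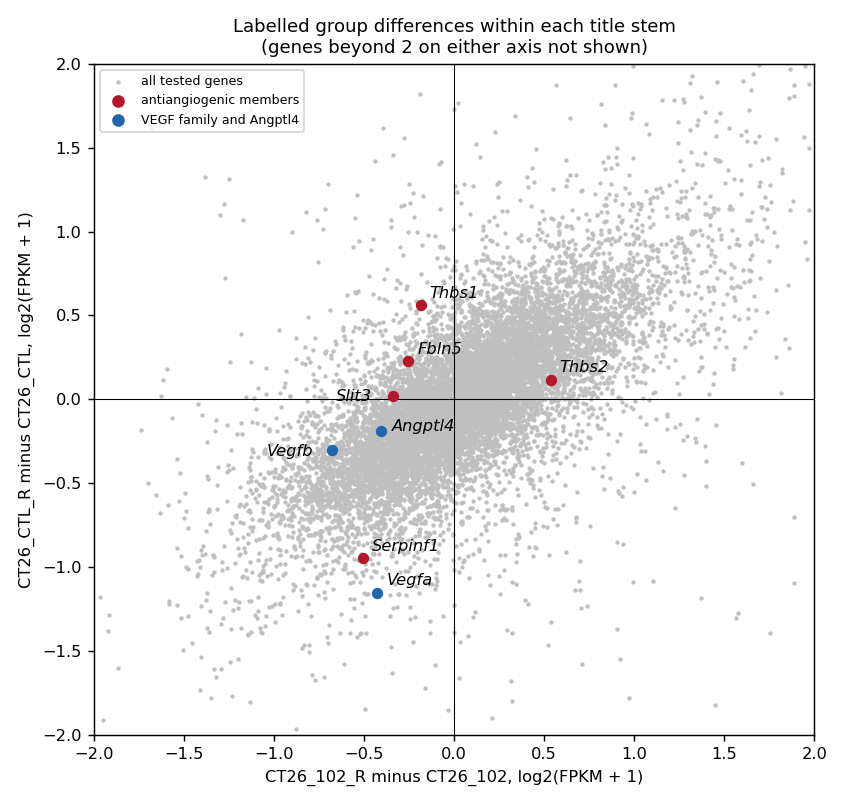
Labelled group difference in log2(FPKM + 1) within stem CT26_102 (horizontal axis) and within stem CT26_CTL (vertical axis), 1 point per tested gene in grey, the antiangiogenic members in red and the VEGF family and Angptl4 in blue, with genes beyond 2 on either axis not shown. Serpinf1, Vegfa, Vegfb and Angptl4 lie lower left, where both differences are negative, Thbs2 lies upper right, and Thbs1, Slit3 and Fbln5 lie upper left.

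Other angiogenic ligands were set beside the VEGF family. In this and the later lists, calls are those of the fit with the stem. Without the stem term, 1 of 11955 genes passed. Of 22 listed beside the members, 11 were tested. Angpt2 passed the level filter only through the libraries labelled FOSL2-KO, so its difference was fixed by the filter and it is given as values. Without it, 3 rose and 0 fell in the libraries labelled FOSL2-KO, where 7.57% of all tested genes rose and 5.32% fell. The median difference without it was 0.63 on the log2(FPKM + 1) scale, against 0.004 over all tested genes. Hbegf, an EGF receptor ligand, had 18.9 and 34.9 FPKM in CT26_102_R and CT26_CTL_R, against 5.16 and 20.8 in CT26_102 and CT26_CTL (1.21 ± 0.25, adjusted p = 0.0452). Ang, the ribonuclease angiogenin, had 7.53 and 4.62 FPKM, against 2.42 and 1.84 (1.15 ± 0.16, adjusted p = 0.0252). Angpt2, a Tie2 ligand that destabilises vessels, had 1.86 and 3.25 FPKM, against 0.667 and 0.824. Ctgf, a matrix-associated growth factor, had 43.6 and 24.2 FPKM, against 23.6 and 12.8 (0.86 ± 0.12, adjusted p = 0.0264). Vegfd, the fifth VEGF gene of the mouse, had 4.49 and 2.28 FPKM, against 4.25 and 1.87 (adjusted p = 0.548).

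The VEGF receptor genes were near 0 or low. Kdr, which is VEGFR2, did not exceed 0.0127 FPKM, and Flt4, which is VEGFR3, was listed at 0 in every library. Flt1, which is VEGFR1, had 0.708 and 0.108 FPKM in CT26_102_R and CT26_CTL_R, against 0.895 and 0.134 in CT26_102 and CT26_CTL. The VEGF co-receptor Nrp2 was expressed, at 7.60 and 11.6 FPKM, against 15.9 and 16.2 (adjusted p = 0.0579), and so was Nrp1 at 4.86 and 1 FPKM, against 3.63 and 0.600 (adjusted p = 0.168). Of the thrombospondin receptors, Cd47 had 14.6 and 24.5 FPKM, against 9.60 and 24.3 (adjusted p = 0.290), whereas Cd36 did not exceed 0.283 FPKM. Pnpla2, a proposed PEDF receptor, had 13.5 and 18.0 FPKM, against 9.61 and 12.9 (adjusted p = 0.0752). Robo1, Robo2 and Robo4, of the Slit receptor family, did not exceed 0.0896 FPKM. Robo3, of the same family, had 1.91 and 2.08 FPKM, against 0.0607 and 0.0367, and passed the level filter only through the libraries where it was high. Of 24 receptor genes listed, 14 were tested, and without Robo3 1 rose and 0 fell, with a median of 0.17. Of all tested genes, 7.57% rose and 5.32% fell. Sdc4, a heparan sulfate co-receptor, had 96.6 and 93.6 FPKM, against 34.2 and 45.7 (1.24 ± 0.15, adjusted p = 0.0216).

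Among 25 other antiangiogenic or angiostatic genes, 11 were tested. The interferon gene Ifnb1 had 5.17 and 26.4 FPKM in CT26_102_R and CT26_CTL_R, against 0.0543 and 0.458 in CT26_102 and CT26_CTL, and it too passed the level filter only through the libraries where it was high. Without it, 4 rose and 0 fell, with a median of 0.16, where 7.57% of all tested genes rose and 5.32% fell. The angiostatic chemokine gene Cxcl10 had 25.8 and 106 FPKM, against 2.02 and 21.5 (2.70 ± 0.23, adjusted p = 0.0174). Timp1, which inhibits matrix metalloproteinases, had 206 and 420 FPKM, against 79.1 and 249 (1.06 ± 0.17, adjusted p = 0.0311). Isg15, an interferon-induced ubiquitin-like protein gene, also rose (adjusted p = 0.0198).

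Relatives of the members were examined next. Of 13 paralogs of the antiangiogenic members, 4 were tested and 0 passed in the limma fit, where 7.57% of all tested genes rose and 5.32% fell. Lower values with suffix R in both stems were held by 38.2% of all tested genes. They were held by all 4 paralogs (Slit2, Efemp2, Fbln2 and Thbs3), with a median of -0.30. Of these, Thbs3 was higher in the CT26_102 stem, at 11.6 and 14.2 FPKM in CT26_102_R and CT26_102, against 5.13 and 5.32 in CT26_CTL_R and CT26_CTL. Slit2 had 2.50 and 4.05 FPKM, against 2.28 and 3.48, and Fbln2 28.5 and 35.8 FPKM, against 27.0 and 31.9. The large stem gap of Slit3 and Fbln5 was not seen in these 2. Slit3 and Fbln5 were selected on that gap, so nothing is read from the contrast. Of 6 other angiopoietin-like genes, Angptl2 and Angptl6 were tested and neither passed (adjusted p = 0.373 and 0.164). Of 14 elastic fibre partners of Fbln5, 6 were tested, 0 rose and 1 fell, the latent TGF-beta binding protein gene Ltbp4. It had 7.96 and 4.60 FPKM in CT26_102_R and CT26_CTL_R, against 20.4 and 7.53 in CT26_102 and CT26_CTL (-0.93 ± 0.19, adjusted p = 0.0454). Elastin itself, Eln, did not exceed 0.00511 FPKM.

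Vegfa and Angptl4, known as HIF targets, were set beside genes of oxygen sensing and the hypoxia response. Of 22 such genes, 19 were tested, 1 rose and 6 fell in libraries labelled FOSL2-KO, and 14 were lower in both stems. Of all tested genes, 7.57% rose, 5.32% fell and 38.2% were lower in both stems. The median difference of the 19 was -0.33, against -0.79 for Vegfa and -0.30 for Angptl4. Pdk1, which restrains pyruvate entry into mitochondria, had 3.86 and 4.20 FPKM in CT26_102_R and CT26_CTL_R, against 17.4 and 12.5 in CT26_102 and CT26_CTL (-1.65 ± 0.18, adjusted p = 0.0198). Car9, carbonic anhydrase 9, had 7.40 and 0.727 FPKM, against 18.4 and 1.81 (-0.96 ± 0.18, adjusted p = 0.0385). Bnip3, a mitophagy gene, differed by -1.16 ± 0.13 (adjusted p = 0.0198). Ddit4, which inhibits mTOR signalling and also responds to DNA damage, rose to 85.6 and 78.9 FPKM, against 34.5 and 36.7 (1.19 ± 0.12, adjusted p = 0.0187). Hif1a, which encodes the oxygen-regulated HIF subunit, had 20.8 and 10.7 FPKM, against 22.7 and 20.2 (adjusted p = 0.162).

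**Figure D4:**
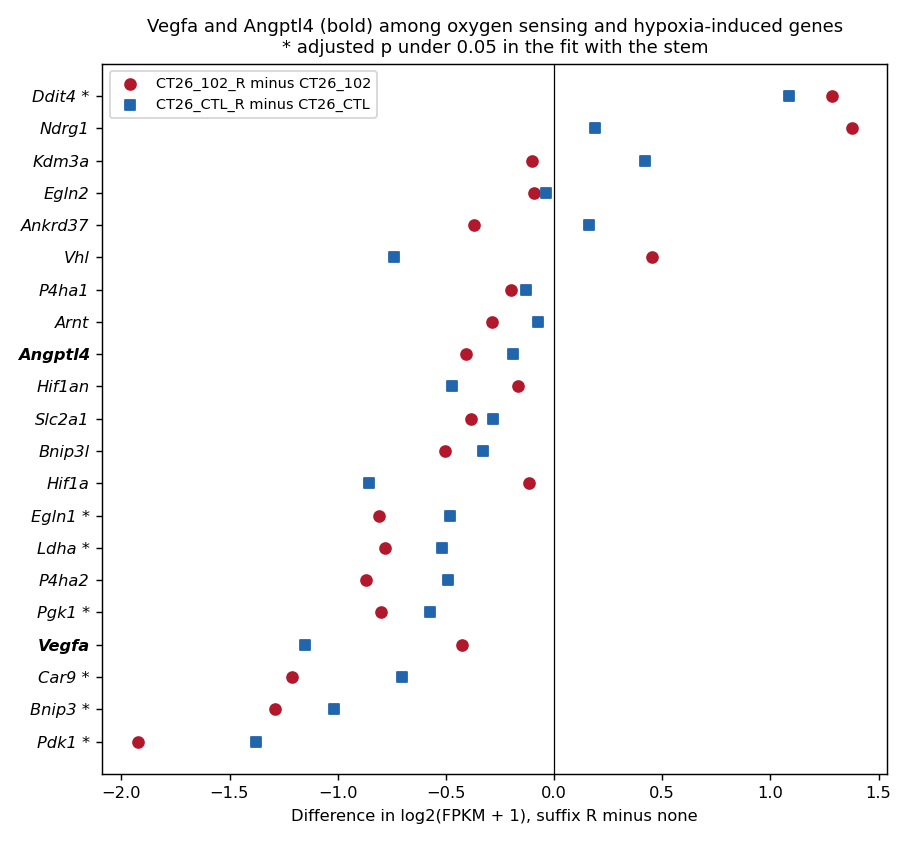
Difference in log2(FPKM + 1) between suffix R and none (horizontal axis) for Vegfa, Angptl4 and the 19 tested genes of oxygen sensing and the hypoxia response, with circles for stem CT26_102 and squares for stem CT26_CTL. An asterisk marks an adjusted p under 0.05 in the fit with the stem. Vegfa and Angptl4 lie left of 0 in both stems, as do 14 of the 19 genes.

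For Angptl4, genes of the PPAR, RXR and glucocorticoid receptor axis, which regulates it, were listed with genes of lipid use and of lipoprotein lipase. Of 14, 7 were tested, 1 rose and 1 fell, and 5 had lower values with suffix R in both stems against 1 with higher values. Of all tested genes, 7.57% rose and 5.32% fell, and 38.2% had lower and 39.1% higher values in both stems. The median of the 7 was -0.12. Lmf1, a lipase maturation gene and 1 of the 5 with lower values, reached 1 FPKM only in the libraries labelled FOSL2-WT. Without it the median was -0.08. Plin2, a lipid droplet protein gene, had 95.4 and 90.9 FPKM in CT26_102_R and CT26_CTL_R, against 38.4 and 62.6 in CT26_102 and CT26_CTL (0.91 ± 0.20, adjusted p = 0.0498). Cpt1a, which carries fatty acids into mitochondria for oxidation, had 5.98 and 3.95 FPKM, against 10.2 and 6.35 (-0.63 ± 0.13, adjusted p = 0.0470). Both calls are near the threshold and, unlike that of Serpinf1, were not followed under other settings. Ppara was listed at 0 in every library, and Pparg did not exceed 0.0913 FPKM. Ppard was expressed, at 9.38 and 2.32 FPKM, against 1.81 and 6.10. It pointed in opposite directions in the stems and did not pass (adjusted p = 0.703).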

How the data were processed

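Per the labels' protocols, an RNeasy kit served for RNA extraction and a SMARTer mRNA kit for library preparation. The authors deposited 1 table of FPKM per gene and library. The submitters' processing notes name the builds GRCm38 and mm10. Which aligner and counting tool the authors ran, and whether libraries kept strand, is not given in the sources used here. Positions and exonic lengths come from GENCODE M21, and promoters from RefSeq GRCm38.p6.

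Genes with at least 1 FPKM in at least 2 libraries (11955) were analysed as log2(FPKM + 1) with limma 3.58.1 in R 4.3.3 (lmFit, eBayes with a trend). The main fit held the labelled group and the title stem. The stem pairs the libraries by title, leaving 1 residual degree of freedom, to which limma's prior added 4.01. P-values are two-sided and Benjamini-Hochberg adjusted over all tested genes, threshold 0.05. "Rose" and "fell" refer to that threshold. An exact permutation test of 2 libraries against 2 cannot go below p = 0.333, so none was run.

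Depth was estimated from steps between low values in genes of at least 300 exonic bases. Between 37.9% and 39.7% of values under 5 steps were whole within 0.02 steps, so depths are approximate, and no counting intervals were computed. The fit was tested on simulated data. Members, gene lists and tests were chosen with earlier results of these data known. Named genes are all members, up to 4 genes past the threshold per list with the largest difference, receptors of members, and the 5 genes nearest in profile to Serpinf1 and to Vegfa. Other genes of the lists (Vegfd, Slit2, Fbln2, Thbs3, Angptl2, Angptl6, Eln, Hif1a, Ppara, Isg15, Efemp2) were named after their values were seen. So were the marker genes (Krt18, Krt20, Epcam, Cdx1, Cdx2, Cdh5, Cldn5, Cd3e, Lyz2, Csf1r, Ptprc, Adgre1, Itgam, Nkg7, Lum, Postn, Dcn, Thy1, Pdgfra), Lmf1 and Gm29233, which overlaps a member. One gene that the rule names is not reported here. Alternatives were pseudocounts of 0.1 and 0.5, scalings, filters, no stem term, no trend, and leaving out each library.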

Additional observations from a re-analysis of the deposited data

Results flagged for a closer look

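In 3 members the labelled group difference pointed in opposite directions in the stems. On the log2(FPKM + 1) scale, CT26_102_R minus CT26_102 was -0.19 for Thbs1, -0.34 for Slit3 and -0.26 for Fbln5, and CT26_CTL_R minus CT26_CTL was 0.56 for Thbs1, 0.0217 for Slit3 and 0.23 for Fbln5. Each value rests on 1 library against 1. The difference between the stems was not tested, since the fit has no further residual degrees of freedom for it.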

How the results depend on the processing

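The labelled group calls depended on the fit. Single calls were followed under other settings for the members only. Calls of other genes near the threshold may be no more stable than that of Serpinf1. With the stem as a term 1541 genes passed, 905 higher and 636 lower. With no replicate block by title stem, 1 passed, 0 higher and 1 lower (1281 at an unadjusted p under 0.05), and with no expression filter 0 passed in limma, 0 higher and 0 lower (4937 at an unadjusted p under 0.05). Upper-quartile rescaling gave 1011 lower, with 48.1% of calls higher against 58.7%. Leaving out 1 library, in fits with no stem term, gave 2 to 11 calls, of which 0 to 9 were higher and 1 to 3 lower. Those fits assume that a lone library varies like the other group. Of the members, 1 passed as reported, 2 with upper-quartile rescaling (Serpinf1 and Vegfa), 1 with median-of-ratios rescaling, and 0 with a pseudocount of 0.1 or 0.5, with no filter, with the filter of 1 FPKM in 1 library, with no stem term or with no trend. The cause was not tested. For single members, leaving out a library is given as the difference of the remaining pair, a value with no test. The 5 members over 2-fold higher in the CT26_102 stem in both pairs were 5 under both pseudocounts, both scalings and within either pair. Low values, such as those of Vegfc, of Pgf and of Serpinf1 in CT26_CTL_R, rest on fewer fragments than the others, and no counting interval was computed for them.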
